A study of Homo sapiens with 6 samples.

Results

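The SMAD family and the SKI repressors comprise 10 genes (SMAD1 to SMAD7, SMAD9, SKI and SKIL), taken by gene symbol from the 58735 genes of the deposited table. They were measured by RNA sequencing of polyA RNA in HEY cells, a human line established from ovarian cancer. Cells with overexpressed miR-200a (3 libraries), which belongs to the miR-200 microRNA family, were compared with cells carrying the empty vector (3 libraries). Per the labels, miR-200a libraries 1 to 3 were collected after 48, 49 and 50 h in 15 cm dishes and vector libraries 1 to 3 after 51, 52 and 53 h, so hours and groups cannot be told apart. The labelled hours rise by 1 from each library to the next, and whether they are true times is not known. The sources used here do not give how the overexpression was made or whether the cells were 1 clone. Whether the libraries of a group are separate cultures is not stated, and p-values therefore cover only the spread between these libraries, which may be technical.

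SMAD proteins carry signals of the TGF-beta superfamily from the cell surface to the nucleus. Receptors for TGF-beta and activin phosphorylate SMAD2 and SMAD3, receptors for bone morphogenetic proteins (BMPs) phosphorylate SMAD1, SMAD5 and SMAD9, and both sets then pair with SMAD4 to bind DNA. SMAD6 and SMAD7 are inhibitory members induced by the same signals, and SKI and SKIL (also called SnoN) bind SMADs and recruit corepressors to their target genes. In carcinoma cells TGF-beta signalling through SMADs is known for growth arrest and for driving epithelial-mesenchymal transition, which the miR-200 family opposes by repressing ZEB1 and ZEB2.

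The microRNAs are shown first because the seed, bases 2 to 8 counted from the 5′ end and printed in capitals, is the part that pairs with a target transcript. miR-200a and miR-141 share one seed, and miR-200b and miR-200c share the other (RefSeq, GRCh38.p14).
hsa-miR-200a-3p: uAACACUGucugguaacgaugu
hsa-miR-141-3p: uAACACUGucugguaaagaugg
hsa-miR-200b-3p: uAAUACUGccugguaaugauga
hsa-miR-200c-3p: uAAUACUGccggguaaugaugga

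The longest annotated 3′ UTR of each of the 10 genes was searched on the sense strand for CAGTGTT, the 7 bases that pair with the miR-200a seed. The letters occurred in SMAD2 and SMAD4 and in none of the other 8 genes, SMAD3, SKI and SKIL included. For SMAD1 only 145 bases could be searched, so the lack of a match there says little. The other members had 1313 to 32870 bases, and the median over tested genes was 1687. Of 10223 tested genes with an annotated 3′ UTR, 23.6% held at least 1 match. The SMAD4 match and the pair of SMAD2 matches that are followed by an A are shown, with the match in capitals, as examples of the 7 matches in the family; the other 4 are in SMAD2.
SMAD4, chr18:51083572-51083596, plus strand (GRCh38): taggtccagagcCAGTGTTcttgtt
SMAD2, chr18:47837962-47837986, minus strand (GRCh38): tcagcatttattCAGTGTTAgatac
SMAD2, chr18:47824024-47824048, minus strand (GRCh38): gcaactaaaagtCAGTGTTAaaacc

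SMAD2 held 6 matches in a 3′ UTR of 32870 bases, or 0.183 per kb, where all tested genes held 0.138 per kb. The first of them lies in 3 annotated coding transcripts of SMAD2 and the other 5 lie only in the transcript with the longest 3′ UTR. CAGTATT, the match to the seed of miR-200b and miR-200c, occurred in SMAD2, SMAD4, SMAD5, SMAD7 and SMAD9, and in 21.2% of tested genes. A match describes the sequence and does not show that the microRNA binds there.

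The libraries held 15849592 to 21003858 reads on genes. Reads of the MIR200A precursor gene numbered 5, 4 and 11 in miR-200a libraries 1 to 3 and 0 in each vector library, and mature microRNA was not measured. Expression is given as FPKM (fragments per kilobase of gene, scaled to library size). The two-sided limma test used log2(FPKM + 1) and was run on genes that reached 1 FPKM in 3 or more libraries. Of 12231 tested genes, 49 passed at a Benjamini-Hochberg adjusted p under 0.05, 35 higher and 14 lower. The ovarian and epithelial markers PAX8 (29.1 to 41.2 FPKM), KRT7, KRT8, KRT18 and MSLN were expressed, and WT1 was near 1 FPKM. The mesenchymal marker VIM was also expressed, at 789 to 908 FPKM. Of 8 markers of other cell types, CD3E and HBB were at 0 in all libraries, PTPRC, CD68, PECAM1 and ALB stayed at or under 0.428 FPKM, COL1A1 ranged from 0.733 to 1.43 FPKM, and the endothelial cadherin CDH5 from 35.2 to 51.1 FPKM.

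SMAD3 rose with miR-200a, and no other tested member passed the test. All members except SMAD6 reached the filter, and 1 of these 9 was called, against 0.401% of all tested genes. With voom on recovered reads SMAD3 was again the 1 member called (adjusted p = 0.00688), against 0.932% of all tested genes. The other 8 had limma adjusted p-values between 0.452 and 0.962, and 1 member, SMAD3, had an unadjusted p under 0.05, against 13.3% of all tested genes. The 9 log2 differences had a median of -0.01, as did those of all tested genes. Of the 9, 4 were above 0 and 5 below, and 48.1% of all tested genes were above 0. In 2 of the 9, SMAD3 and SMAD9, every miR-200a library was above every vector library, which held for 8.29% of all tested genes. In bulk RNA a change in the share of cells with a transcript and a change in its level per cell cannot be told apart.

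**Figure D1:**
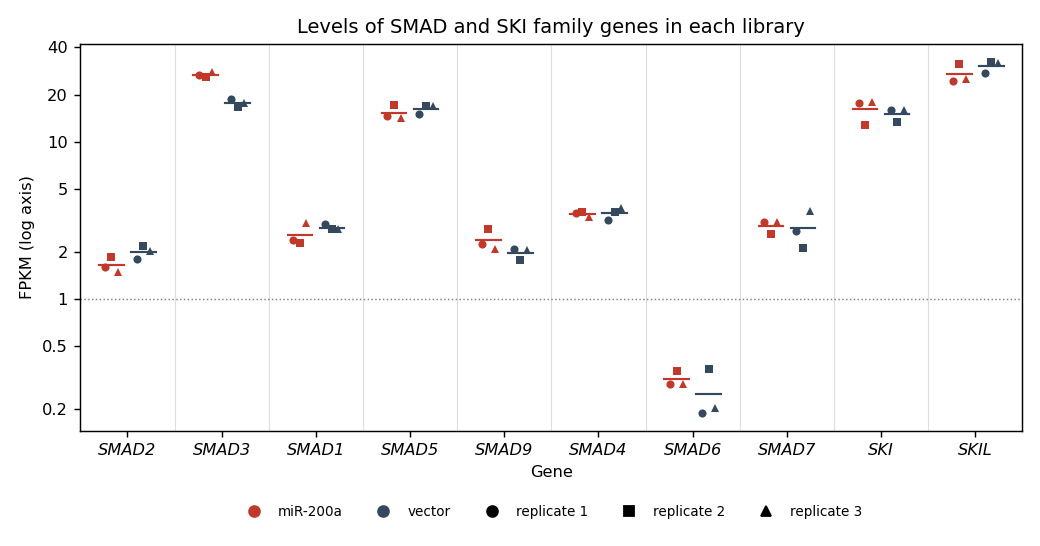
FPKM on a log axis of the 10 genes in each library, with miR-200a libraries left of vector libraries, marker shapes for replicate numbers, short lines for group means and a dotted line at 1 FPKM. SMAD3 is at 25.8 to 28.0 FPKM in miR-200a libraries and 16.7 to 18.7 FPKM in vector libraries, while SMAD6 stays below 1 FPKM throughout.

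SMAD3 (ENSG00000166949, chromosome 15, 67063763 to 67195195, GRCh38), a receptor-regulated SMAD that binds DNA directly, stood at 26.6, 25.8 and 28.0 FPKM in miR-200a libraries 1 to 3 and at 18.7, 16.7 and 17.8 FPKM in vector libraries 1 to 3. The groups did not overlap, and the lowest miR-200a library was well above the highest vector library. The means were 26.8 ± 1.11 FPKM with miR-200a and 17.7 ± 1.03 FPKM with the vector (SD, n = 3 each), a 1.51-fold difference. The log2 difference was 0.57 (SE 0.07, 95% interval 0.40 to 0.75), with a limma adjusted p of 0.0345. Counting error was small at this level, with 3752 to 4764 SMAD3 reads in miR-200a libraries and 2618 to 3593 in vector libraries. An exact two-sided permutation test gave p = 0.1, the smallest that the 10 splits of 3 against 3 libraries allow.

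The size of the SMAD3 difference moved little when 1 library was left out, between 0.53 and 0.61, but the limma call was kept only without miR-200a 2 (adjusted p = 0.0369). It was lost without miR-200a 1 (adjusted p = 0.189), miR-200a 3 (0.187), vector 1 (0.0796), vector 2 (0.182) or vector 3 (0.176), and also with no filter on low genes (0.0842). Antisense genes that overlap SMAD3 had at most 15 reads in any library, so they are minor beside the SMAD3 reads whichever strand was counted.

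SMAD3 lies on a chromosome where most tested genes had slightly higher means with miR-200a. Of 22 other tested genes that start within 2 Mb of SMAD3, 19 had a log2 difference above 0, with a median of 0.08, where 48.1% of all tested genes were above 0 with a median of -0.01. Over the other 382 tested genes of chromosome 15 the median was 0.10 and 77.0% were above 0, and chromosome 15 came second among the chromosomes by its median, after chromosome 22. None of the 22 neighbours passed the limma test, and in 5 of them every miR-200a library was above every vector library, as in 80 of the other 382 tested genes of the chromosome and 8.29% of all tested genes. The neighbour median was 0.01 without miR-200a 2, and 0.13 after a correction of each library for gene GC content and length.

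SMAD3 was also set against its own neighbourhood. Relative to the mean log2(FPKM + 1) of the 22 neighbours, SMAD3 stood 1.63, 1.53 and 1.72 higher in miR-200a libraries 1 to 3 and 1.23, 1.07 and 1.21 higher in vector libraries 1 to 3. The groups did not overlap, and the difference between them was 0.45 (exact two-sided permutation p = 0.1, the smallest possible). Among the 383 tested genes of chromosome 15, SMAD3 ranked 7th by its log2 difference.

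The neighbours with the smallest p-values were CORO2B, SLC24A1, CLN6 and MAP2K1. CORO2B, which encodes an actin-binding coronin, stood at 3.71, 2.40 and 3.65 FPKM in miR-200a libraries and 1.76, 1.57 and 1.64 FPKM in vector libraries, with a log2 difference of 0.66 and a limma adjusted p of 0.142. MAP2K1, which encodes the kinase MEK1, averaged 19.5 ± 0.671 FPKM with miR-200a and 17.1 ± 0.0643 FPKM with the vector (SD, n = 3 each; limma adjusted p = 0.330). SLC24A1 (log2 difference 0.29) and CLN6 (0.23) each had a limma adjusted p of 0.318. SMAD6, which starts upstream of SMAD3 within the same window, was below the filter and is described with the inhibitory members.

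**Figure D2:**
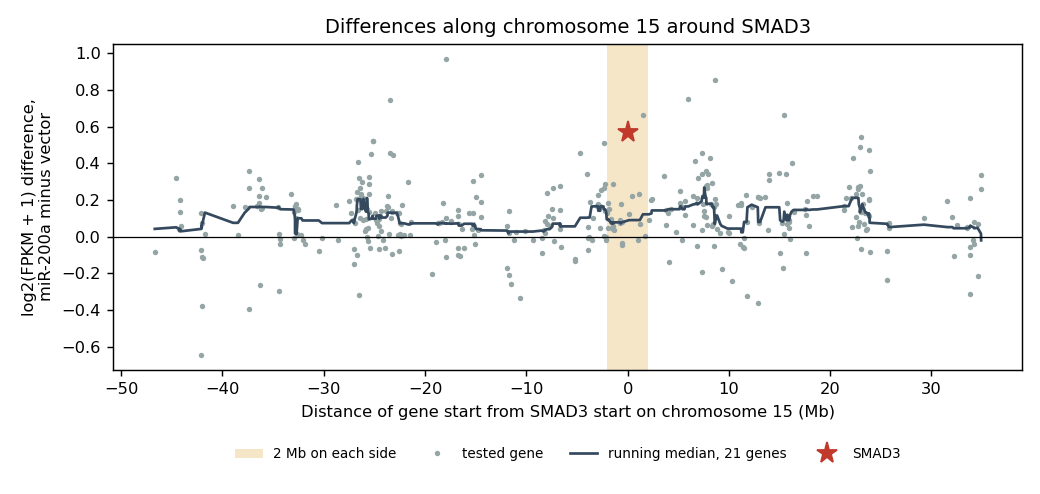
Differences of mean log2(FPKM + 1), miR-200a minus vector, of the 383 tested genes of chromosome 15 against their distance in Mb from the start of SMAD3, with a running median over 21 genes and the window of 2 Mb on each side shaded. The running median stays slightly above 0 over nearly the whole chromosome, and SMAD3 (0.57) lies above it.

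SMAD2 (ENSG00000175387, chromosome 18, 47808957 to 47931146), the other SMAD of the TGF-beta and activin branch, stood at 1.61, 1.85 and 1.48 FPKM in miR-200a libraries and 1.79, 2.19 and 2.04 FPKM in vector libraries. The groups overlapped through miR-200a 2 and vector 1. Its log2 difference was -0.18 (SE 0.10, 95% interval -0.42 to 0.05, limma adjusted p = 0.452), so a fall of that size was not separable from the spread. The FPKM of SMAD2 is set by a gene length of 36366 bases, the union of all its annotated exons. Its reads were 1069, 1076 and 1007 in miR-200a libraries and 1371, 1425 and 1199 in vector libraries. Spread over the second longest coding transcript of 12075 bases, the same reads would come to 4.46 to 5.58 FPKM with miR-200a and 5.39 to 6.60 FPKM with the vector.

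The balance between SMAD3 and SMAD2 was taken as a ratio, with no test of its own. As deposited, the SMAD3 to SMAD2 ratio of FPKM was 16.5, 13.9 and 18.9 in miR-200a libraries 1 to 3 and 10.5, 7.60 and 8.71 in vector libraries 1 to 3. No miR-200a library fell into the range of the vector libraries. The size of the ratio depends on the length used for SMAD2, and the comparison between libraries does not. SMAD3 made up 48.9, 45.7 and 50.5% of the summed FPKM of the 8 SMAD genes in miR-200a libraries 1 to 3 and 35.9 and 36.1% in vector libraries 2 and 3. Vector 1, the highest of its group, was below all miR-200a libraries.

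The BMP branch consisted mainly of SMAD5. SMAD5 (ENSG00000113658, chromosome 5, 136132845 to 136188747), which transmits BMP signals, stood at 14.6, 17.2 and 14.1 FPKM in miR-200a libraries and 15.1, 16.9 and 16.9 FPKM in vector libraries. Libraries of both groups were interleaved, with the highest and the lowest value both in the miR-200a group. On the log2 scale the difference was -0.09 (SE 0.09, 95% interval -0.31 to 0.13, limma adjusted p = 0.676).

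SMAD1 (ENSG00000170365, chromosome 4, 145481194 to 145558079), the close relative of SMAD5, stood at 2.36, 2.26 and 3.03 FPKM in miR-200a libraries and 2.99, 2.79 and 2.79 FPKM in vector libraries. Only miR-200a 3 was as high as the vector libraries. The log2 difference was -0.12 (SE 0.10, 95% interval -0.36 to 0.12, limma adjusted p = 0.590).

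SMAD9 (ENSG00000120693, chromosome 13, 36844831 to 36920765), the third BMP SMAD, stood at 2.25, 2.78 and 2.09 FPKM in miR-200a libraries and 2.07, 1.77 and 2.04 FPKM in vector libraries. The groups did not overlap, although miR-200a 3 and vector 1 nearly touched. Its log2 difference was 0.19 (SE 0.11, 95% interval -0.06 to 0.43), with 0.463 as the limma adjusted p. The exact two-sided permutation p was 0.1 (n = 3 each), the smallest possible. SMAD9 reads numbered 224 to 254 with miR-200a and 181 to 250 with the vector, and a difference of this size was not established. The sense intronic transcript SMAD9-IT1 had at most 10 reads.

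SMAD4 (ENSG00000141646, chromosome 18, 51028394 to 51085045), the shared partner of all receptor-regulated SMADs, stood at 3.55, 3.59 and 3.32 FPKM in miR-200a libraries and 3.19, 3.56 and 3.82 FPKM in vector libraries. The miR-200a values lay inside the range of the vector values. On the log2(FPKM + 1) scale the difference was -0.01 (SE 0.08, 95% interval -0.20 to 0.18, limma adjusted p = 0.962). The interval leaves room for changes in either direction, and at this level the scale understates their size. SMAD2, SMAD7 and SMAD4 all lie on chromosome 18, where 29.2% of 171 tested genes had a log2 difference above 0 and the median was -0.08.

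**Figure D3:**
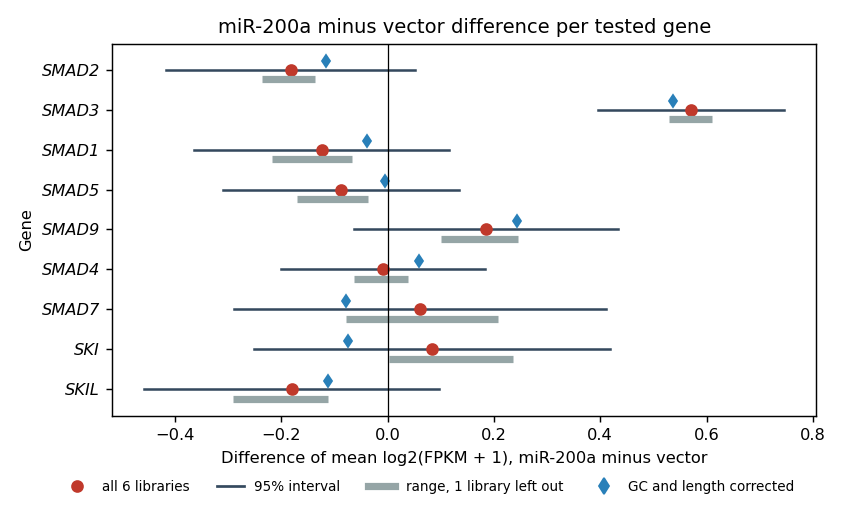
Difference of mean log2(FPKM + 1), miR-200a minus vector, of the 9 tested members, with 95% intervals, the range with 1 library left out and the value after GC and length correction. The interval excludes 0 for SMAD3 and includes 0 for the other 8 members.

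Both inhibitory SMADs were expressed at low levels and did not pass the test or, for SMAD6, were not tested by limma. SMAD7 (ENSG00000101665, chromosome 18, 48919853 to 48952052), which blocks activated receptors and brings ubiquitin ligases to them, stood at 3.10, 2.61 and 3.11 FPKM in miR-200a libraries and 2.73, 2.11 and 3.62 FPKM in vector libraries. The highest and the lowest library were both vector libraries. The log2 difference was 0.06 (SE 0.15, 95% interval -0.29 to 0.41, limma adjusted p = 0.864), the widest interval among the 9 tested members.

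SMAD6 (ENSG00000137834, chromosome 15, 66702228 to 66782848), which preferentially inhibits BMP signalling, stayed under the filter at 0.288, 0.351 and 0.288 FPKM in miR-200a libraries and 0.189, 0.359 and 0.202 FPKM in vector libraries. The groups overlapped, with vector 2 the highest library. The values rest on 45, 48 and 46 reads in miR-200a libraries and 34, 55 and 28 in vector libraries, and the groups were not separated (exact two-sided permutation p = 0.4, n = 3 each).

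Of the 9 members with a promoter window, only SMAD6 held the palindromic SMAD-binding element GTCTAGAC in it. Windows run from 250 bases before to 50 after each RefSeq start site, and sequence outside them was not searched. The element reads the same on both strands and occurred in 0.202% of all 35116 windows, and 20 windows of 9 members were searched. It is printed because SMAD6 is a feedback target of SMAD signalling, with the element in capitals; a match describes the letters and not binding.
SMAD6, chr15:66702213-66702242, plus strand (GRCh38.p14): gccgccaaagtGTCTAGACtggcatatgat

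SKI and SKIL, the repressors, did not pass the test, and each overlapped between the groups. SKI (ENSG00000157933, chromosome 1, 2228695 to 2310119) stood at 17.8, 12.8 and 18.0 FPKM in miR-200a libraries and 16.0, 13.3 and 15.9 FPKM in vector libraries. Library 2 was the lowest of each group. Its log2 difference was 0.08 (SE 0.14, 95% interval -0.25 to 0.42, limma adjusted p = 0.797).

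SKIL (ENSG00000136603, chromosome 3, 170357678 to 170396835), itself a target gene of SMAD signalling whose protein is degraded on TGF-beta stimulation, stood at 24.3, 31.4 and 25.3 FPKM in miR-200a libraries and 27.4, 32.5 and 32.0 FPKM in vector libraries. Library 2 was the highest of each group, the opposite of SKI. On the log2 scale the difference was -0.18 (SE 0.12, 95% interval -0.46 to 0.10, limma adjusted p = 0.509). The SKIL to SKI ratio of FPKM was 1.37, 2.46 and 1.41 in miR-200a libraries 1 to 3 and 1.71, 2.44 and 2.02 in vector libraries 1 to 3.

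SKI and SKIL lie at opposite ends of the family in base composition, with 60.0% and 33.4% GC in their longest transcripts. The libraries differed in how values changed with gene GC content. The slope of log2 deviation per 10 percentage points of GC was 0.124, -0.0844 and 0.122 in miR-200a libraries 1 to 3 and -0.0338, -0.104 and -0.0242 in vector libraries 1 to 3. After a smooth correction of each library for GC content and gene length, the SKI difference was -0.07 (limma adjusted p = 0.588) and the SKIL difference -0.11 (limma adjusted p = 0.346), so the sign of SKI turned. The part of base composition in the deposited SKI and SKIL differences was not tested further. SMAD7, with 58.7% GC, turned as well (-0.08), and so did SMAD4 (0.06). SMAD3, with 50.4% GC, kept a difference of 0.54 with a limma adjusted p of 0.00437, in a fit that called 1.77% of all tested genes.

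**Figure D4:**
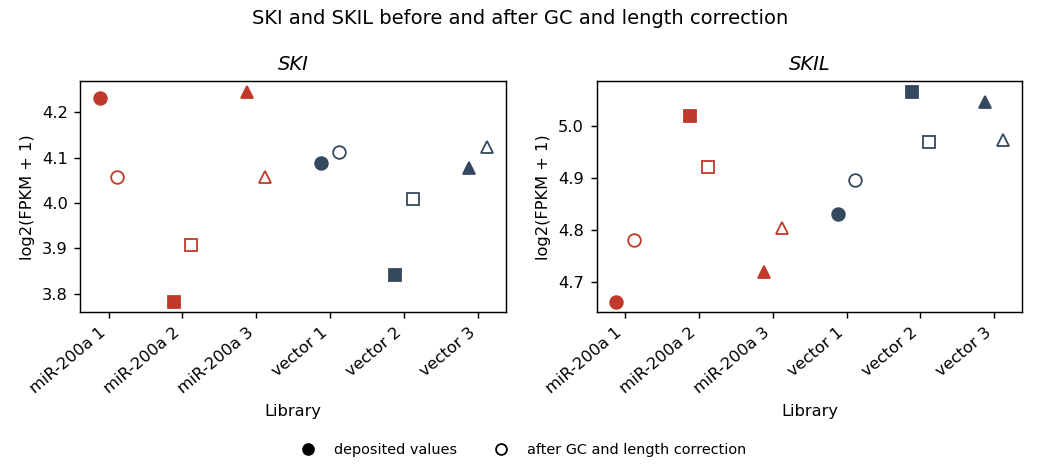
log2(FPKM + 1) of SKI and SKIL in each library, miR-200a libraries on the left, as deposited (filled) and after the GC and length correction (open). The deposited SKI value is lowest and the deposited SKIL value highest in library 2 of each group, and the open markers spread less.

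Ranked by FPKM, the family fell into a high and a low set in both groups. SKIL, SMAD3, SKI and SMAD5 averaged 15.3 to 27.0 FPKM with miR-200a and 15.1 to 30.7 FPKM with the vector. SMAD4, SMAD7, SMAD1, SMAD9 and SMAD2 averaged 1.65 to 3.49 FPKM with miR-200a and 1.96 to 3.52 FPKM with the vector, and SMAD6 was last in both groups. In miR-200a libraries SKIL and SMAD3 overlapped at the top, and SMAD3 lay apart from SKI and SMAD5, which overlapped each other. In vector libraries SKIL lay apart from SMAD3, and SMAD3 overlapped SMAD5, which overlapped SKI. Among the low genes SMAD4 lay apart from SMAD7 and SMAD1 in miR-200a libraries, while in vector libraries it overlapped SMAD7. The place of SMAD2 among the low genes depends on the length used, here its exon union. Over its second longest coding transcript its reads would come to 4.46 to 6.60 FPKM. SMAD4 was not rescaled to a single transcript, so the order of SMAD2 and SMAD4 on like lengths was not tested.

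The 5 tested genes whose library profile was closest to that of SMAD3 were GPX3, AC073174.1, DSP, CMTM7 and CENPM. Closeness was measured over the 6 libraries as the root mean square difference of log2(FPKM + 1) after centring each gene, and it ran from 0.0352 for GPX3 to 0.0568 for CENPM. GPX3, the gene of a secreted glutathione peroxidase, stood at 12.1, 11.7 and 12.1 FPKM in miR-200a libraries and 8.54, 7.32 and 8.21 FPKM in vector libraries. DSP, the gene of the desmosomal protein desmoplakin, averaged 18.5 FPKM with miR-200a and 12.1 FPKM with the vector. Because the 5 were chosen by likeness to SMAD3 in these libraries, a group difference like that of SMAD3 was built in. Their p-values are therefore not given. None of the 5 lies on chromosome 15, but CENPM lies on chromosome 22, which had a higher median log2 difference (0.13 against 0.10).

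Genes around the SMADs were taken from 7 lists of the pathway, which together held 120 different tested genes apart from the members, of which 3 rose and 0 fell by limma. Those that rose were NEO1, PDGFB and ID1. Of all tested genes, 0.286% rose and 0.114% fell.

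Among receptors and coreceptors of the TGF-beta superfamily (12 of 17 tested), NEO1 rose. NEO1, which encodes neogenin, a receptor that takes part in BMP coreceptor complexes, stood at 2.80, 2.67 and 2.95 FPKM in miR-200a libraries and 1.42, 1.19 and 1.17 FPKM in vector libraries. Its groups did not overlap, and the 2.22-fold difference (log2 difference 0.75, SE 0.09) had a limma adjusted p of 0.0260. NEO1 also lies on chromosome 15, 5.99 Mb from SMAD3. The other 11 did not pass, 3 of them lower in every miR-200a library than in any vector library (25.0%, against 10.7% of all tested genes). These were BMPR2, RGMB and ACVR2A, chosen for naming after their values were seen. The list median was -0.03. The receptors that phosphorylate SMAD3 stood at 6.31, 7.22 and 6.27 FPKM with miR-200a and 7.22, 8.25 and 7.86 FPKM with the vector for TGFBR1, and at 112, 109 and 112 FPKM with miR-200a and 111, 101 and 102 FPKM with the vector for TGFBR2. Both overlapped between the groups, TGFBR1 by a narrow margin.

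No ligand or secreted antagonist passed (10 of 30 tested, median 0.06). Of the 10, 2 had an unadjusted p under 0.05 by limma, against 13.3% of all tested genes. After GC and length correction the list median was -0.01. BMP2, a ligand of the SMAD1, SMAD5 and SMAD9 branch, stood at 8.49, 7.32 and 8.68 FPKM in miR-200a libraries and 10.5, 9.57 and 10.3 FPKM in vector libraries (limma adjusted p = 0.277). The activin antagonist FST stood at 1.37, 1.43 and 1.41 FPKM in miR-200a libraries and 1.86, 2.20 and 1.69 FPKM in vector libraries (limma adjusted p = 0.328). FSTL3, a related antagonist, stood at 9.11, 8.78 and 9.74 FPKM in miR-200a libraries and 8.48, 7.83 and 8.69 FPKM in vector libraries (limma adjusted p = 0.464).

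Of 32 reported SMAD2 and SMAD3 target genes, 24 were tested and PDGFB rose. PDGFB, a growth factor subunit, stood at 19.4, 13.1 and 18.2 FPKM in miR-200a libraries and 7.36, 6.98 and 7.26 FPKM in vector libraries, with no overlap (log2 difference 1.10, SE 0.14, limma adjusted p = 0.0300). Of the 24, 19 had a log2 difference above 0, where 48.1% of all tested genes did, and the median was 0.14. In 9 of the 24 (37.5%, against 8.29% of all tested genes) every miR-200a library was above every vector library. CTGF (also called CCN2), a matricellular protein gene chosen for naming after its values were seen, stood at 417, 419 and 421 FPKM in miR-200a libraries and 326, 305 and 299 FPKM in vector libraries (limma adjusted p = 0.0780). IGFBP3, chosen in the same way, went the other way at 10.5, 11.2 and 11.2 FPKM in miR-200a libraries and 16.6, 13.5 and 14.3 FPKM in vector libraries (limma adjusted p = 0.180). JUNB and CDKN1A, textbook SMAD3 targets also chosen after their values were seen, overlapped between the groups. After GC and length correction the median was 0.13 and CTGF, PDGFB and TGFBI were called, in the fit that called 1.77% of all tested genes.

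Of 17 reported SMAD1 and SMAD5 target genes, 9 were tested and ID1 rose. ID1, a dominant-negative helix-loop-helix regulator and a classical BMP target, stood at 53.2, 45.2 and 48.7 FPKM in miR-200a libraries and 30.1, 27.2 and 30.0 FPKM in vector libraries, without overlap (log2 difference 0.73, SE 0.09, limma adjusted p = 0.0260). The list median was 0.12, with 6 of 9 above 0, where 48.1% of all tested genes were. The limma calls of NEO1, PDGFB and ID1 were each kept without miR-200a 2 and lost without any other single library, with adjusted p-values up to 0.150, 0.141 and 0.131 in that order.

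**Figure D5:**
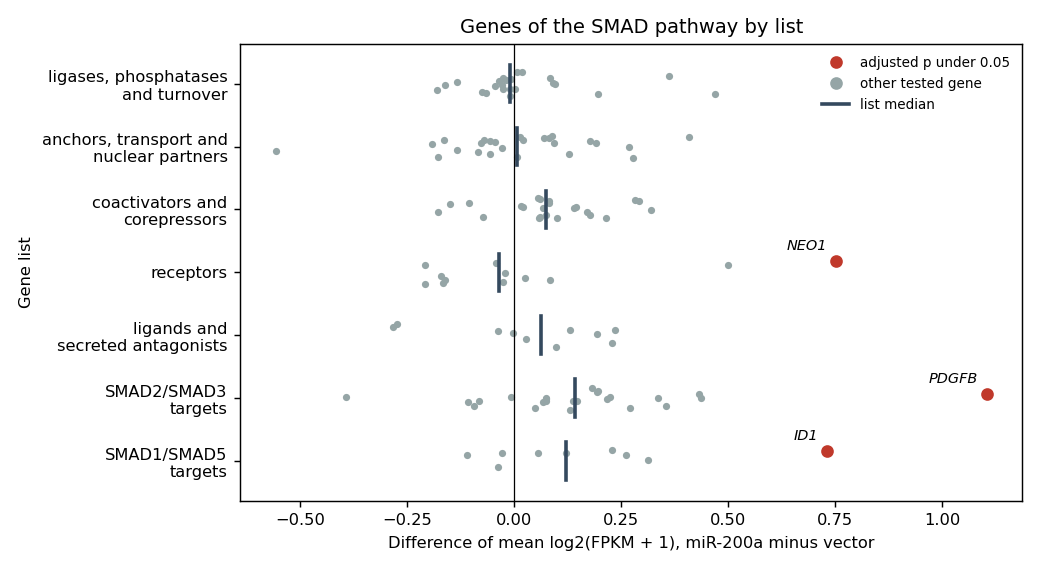
Differences of mean log2(FPKM + 1), miR-200a minus vector, of the tested genes of 7 pathway lists, with list medians as dark bars and genes with a limma adjusted p under 0.05 in red. NEO1 (0.75), PDGFB (1.10) and ID1 (0.73) stand to the right of their lists, and the SMAD2/SMAD3 targets have the highest median (0.14).

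Factors that modify or turn over SMADs did not pass the test (23 of 25 tested, median -0.01). Of the 23, 3 had an unadjusted p under 0.05 by limma, against 13.3% of all tested genes. Voom called 0 of the 23, against 0.932% of all tested genes. CTDSP1, a phosphatase reported to act on the SMAD linker, averaged 11.8 ± 1.64 FPKM with miR-200a and 8.25 ± 1.04 FPKM with the vector (SD, n = 3 each; limma adjusted p = 0.227). USP9X, a deubiquitinase of SMAD4, averaged 9.55 ± 0.507 FPKM with miR-200a and 10.9 ± 0.528 FPKM with the vector (SD, n = 3 each; limma adjusted p = 0.362). STUB1, a ubiquitin ligase that targets SMADs, averaged 11.5 ± 2.20 FPKM with miR-200a and 8.68 ± 1.30 FPKM with the vector (SD, n = 3 each; limma adjusted p = 0.375).

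Anchors, transport factors and nuclear partners of SMADs (25 of 28 tested, median 0.01) held no limma call either, with 2 at an unadjusted p under 0.05 (13.3% of all tested genes were) and 1 called by voom (0.932% of all tested genes were). That gene was ZEB2, a SMAD-binding repressor and a known miR-200 target, at 1.04, 0.962 and 0.910 FPKM in miR-200a libraries and 2.10, 2.02 and 1.61 FPKM in vector libraries (limma adjusted p = 0.112, voom adjusted p = 0.00444). ZEB1, the other known target, was at a higher level than ZEB2 in every library. It stood at 23.5, 28.5 and 23.4 FPKM in miR-200a libraries and 27.7, 29.4 and 27.3 FPKM in vector libraries (log2 difference -0.16). Its groups overlapped, and it was not called (limma adjusted p = 0.464, voom adjusted p = 0.419). FOXO4, a forkhead partner of SMADs, averaged 4.80 ± 0.554 FPKM with miR-200a and 3.39 ± 0.621 FPKM with the vector (SD, n = 3 each; limma adjusted p = 0.291). IPO7, a nuclear import receptor, averaged 88.9 ± 10.2 FPKM with miR-200a and 101.4 ± 4.89 FPKM with the vector (SD, n = 3 each; limma adjusted p = 0.429).

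Coactivators and corepressors that SMADs, SKI and SKIL recruit (23 of 28 tested) had a median of 0.07 and no call by limma or voom. By limma 1 of the 23 had an unadjusted p under 0.05, against 13.3% of all tested genes. Of the 23, 19 had a log2 difference above 0, where 48.1% of all tested genes did. After GC and length correction the list median was 0.04. KAT2A, a histone acetyltransferase, averaged 13.1 ± 1.92 FPKM with miR-200a and 10.5 ± 0.511 FPKM with the vector (SD, n = 3 each; limma adjusted p = 0.338). SNW1, a SKI-interacting coregulator, averaged 40.2 ± 2.34 FPKM with miR-200a and 45.7 ± 2.93 FPKM with the vector (SD, n = 3 each; limma adjusted p = 0.401). PML, a nuclear body protein, stood at 8.38, 5.87 and 8.54 FPKM in miR-200a libraries and 6.72, 5.05 and 5.77 FPKM in vector libraries (limma adjusted p = 0.411).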

How the data were processed

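The deposited table holds FPKM values made by the authors for 58735 genes in 6 libraries, and 0 further value columns. An aligner, a counter and the use of strand in counting are not named in the labels or headers. Mouse builds (GRCm38, mm10) are listed per the submitters' processing notes, but all 58735 gene identifiers, starts and ends equalled the human GENCODE 29 annotation (GRCh38), and 58724 deposited gene lengths equalled the union of annotated exons. Multiplying FPKM by gene length and a constant per library gave whole reads for 100% of nonzero values (tolerance 0.001 of a read), which gave the depth.

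Log2(FPKM + 1) was fitted with limma 3.58.1 in R 4.3.3 (eBayes with a trend, group as the only term), after a filter of 1 FPKM in at least 3 libraries. Differences on this scale understate changes of low genes. Folds are ratios of mean FPKM. Single genes were also tested by exact permutation (scipy 1.17.1). The fit was tested on simulated reads. Alternatives were a pseudocount of 0.1, other filters and scalings, voom on the recovered reads, a spline correction for GC content and length (5 degrees of freedom each), a replicate block, eBayes without a trend, and each library left out.

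The members and lists were chosen with earlier results of these data known. Named genes were all members, the 5 closest profiles to SMAD3, list genes past the threshold or else up to 3 per list, and up to 4 neighbours of SMAD3. The other genes named were chosen after their values were seen.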

Additional observations from a re-analysis of the deposited data

How the results depend on the processing

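The number of genes called over the whole table was 49, and it was 5 with no filter, 114 with voom, 217 with the GC and length correction and 8 to 225 with 1 library left out (225 without miR-200a 2). Of the members, 1 was called, SMAD3, against 0 with no filter and 0 to 1 with 1 library left out. Correlations of deviations between same-numbered libraries were 0.143, 0.367 and -0.006 for numbers 1 to 3. Those between differently numbered libraries ran from -0.266 (miR-200a 2 with vector 1) to 0.203 (miR-200a 3 with vector 1). The numbers were therefore not taken as pairs. With a replicate block 69 genes and 1 member were called, and SMAD3 had a limma adjusted p of 0.0440. The SMAD3 neighbour median of 0.0751 was 0.0148 to 0.12 with 1 library left out and 0.133 with the GC and length correction, which was added after seeing the data for neighbours and lists. Of the lists, nuclear partners had 1 call with voom (ZEB2), and SMAD2 and SMAD3 targets 2 with voom and 3 with the GC and length correction, against 0 and 1 as reported, in fits that called 0.932% (voom) and 1.77% (correction) of all tested genes against 0.401%.

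Small differences changed sign. SMAD4 was 0.00202 after median recentring, 0.0593 with the GC and length correction with or without the block, 0.0174 without miR-200a 3 and 0.0376 without vector 3, with a range of -0.0631 to 0.0376 when 1 library was left out. SMAD7 was -0.0791 with that correction with or without the block and -0.0784 without vector 2 (range -0.0784 to 0.207 with 1 library left out), and SKI was -0.0742 with it, with or without the block. The cause was not tested. No other member changed sign in the 16 alternatives, and no member other than SMAD3 was called in any of them. The low genes SMAD6, SMAD7 and SMAD9 are limited by 28 to 295 reads per library.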
